A study of Mus musculus with 8 samples.

Results

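The lysosomal degradation genes described here are 49 genes chosen by function, with earlier results of these data known. They are 12 cathepsins and legumain, 13 hydrolases of sugars, lipids and peptides, 3 soluble cofactors, 5 membrane proteins, 3 MiT transcription factors and 13 subunits of the vacuolar proton pump (V-ATPase). They were taken from the 35975 mouse genes with a joined transcript, and all 49 were among the 13343 genes with enough counts to be tested. Bulk RNA sequencing was done on 8 libraries of cells from syngeneic fibrosarcomas grown under the skin of wild-type (WT) C57BL/6 mice. Digested tumor cells, freed of red cells by lysis, were passed over magnetic columns. The 4 iron positive libraries hold the retained eluate and the 4 iron negative libraries hold the flowthrough. Both fractions share genotype, tumor model and digestion, and the labels name no further treatment. The labels give no age, do not name the fibrosarcoma line and do not say how many animals the tags 3L, 3R, 4R and 5L stand for, so p-values measure only the spread between these libraries.

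Lysosomes are acidic compartments in which macrophages break down engulfed cells, proteins, lipids and the contents of red cells. The V-ATPase pumps protons into the lumen, and most cathepsins and glycosidases work best at that low pH. MiT factors (Tfeb, Tfe3 and Mitf) bind E-boxes in the promoters of many of these genes, a motif set known as CLEAR, and are held in the cytoplasm by mTORC1 when nutrients are plentiful.

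Totals ran from 19.04 to 24.31 M estimated counts per library. Levels are CPM (counts scaled to a common library total) with TMM scaling factors, which assume that most genes do not differ. A positive log2 fold change means a higher level in the iron positive fraction, and genes with an adjusted p under 0.05 in edgeR's quasi-likelihood test are called higher or lower. All 12 macrophage markers were detected, summing to 29000 to 32200 CPM in iron negative and 21700 to 29400 in iron positive libraries, and 4 of the 12 were lower, with a median log2 fold change of -0.31. Markers of vessel, connective tissue and muscle cells were higher in the iron positive libraries: endothelial markers (10 of 10 higher) summed to 68.8 to 110 against 207 to 1470 CPM, and fibroblast and fibrosarcoma markers (6 of 9 tested higher) to 124 to 393 against 498 to 4770 CPM. Pericyte and smooth muscle markers (5 of 8 higher) summed to 27.1 to 53.7 against 74.1 to 484 CPM, and skeletal muscle markers (7 of 7 higher) to 2.46 to 4.68 against 19.5 to 60.3 CPM. Each of these 4 sums was highest in iron positive 3R, where the macrophage sum was lowest. Dendritic cell markers summed to 352 to 559 against 200 to 330 CPM (1 of 5 tested higher and 1 lower). That sum was nearly all Itgax, at 349 to 555 against 190 to 319 CPM, while Zbtb46 had 0.652 to 1.61 against 2.14 to 7.86 CPM. The sum thus describes Itgax more than the list. The 6 T and NK cell markers summed to 3.54 to 9.18 against 2.09 to 4.94 CPM, and the 4 tested ones did not pass. In such bulk samples, fewer cells of a type and less RNA per cell cannot be told apart.

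The motif that MiT factors bind is shown first because it is what these genes are best known to share in sequence. In RefSeq promoter windows (GRCm38.p6, 250 bases before to 50 after the start), 39 of the 49 genes had an entry, with 49 windows between them because some genes have several starts. The E-box CACGTG, searched on both strands, was in a window of 13 of the 39 genes (33.3%), beside 11.4% of the 10206 tested genes with a window. Counted by window, 26.5% of the 49 held it, beside 7.15% of all 32851 windows. Its extended form TCACGTG, which contains the E-box, was in 11 genes (28.2%, beside 6.8%) and in 22.4% of their windows, beside 3.77% of all windows. TCATGTG, the core of the M-box, was in 7 genes (17.9%, beside 2.7%) and in 14.3% of their windows, beside 3.77%. Of the matched genes, 2 of the 3 called higher (Ctsd and Ctsl, not Ctsk), 1 of the 4 called lower (Ctsf) and 10 of the 32 that did not pass held the E-box. A match describes letters in a window and is not a binding site. The stretches that hold the E-boxes are printed for those 3 called genes and for Lamp1 and Mcoln1, which did not pass, 5′ to 3′ on the strand of the gene with the E-box in capitals. They lie at chr7:142387905-142388077 (minus strand) for Ctsd, chr13:64370736-64370770 (minus) for Ctsl, chr19:4855071-4855106 (plus) for Ctsf, chr8:13159085-13159160 (plus) for Lamp1 and chr8:3500433-3500494 (plus) for Mcoln1.
Ctsd: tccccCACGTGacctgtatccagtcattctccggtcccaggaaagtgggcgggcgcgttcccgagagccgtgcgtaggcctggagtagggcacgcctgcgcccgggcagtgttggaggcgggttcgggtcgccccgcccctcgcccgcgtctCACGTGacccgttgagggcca
Ctsl: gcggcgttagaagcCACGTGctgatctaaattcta
Ctsf: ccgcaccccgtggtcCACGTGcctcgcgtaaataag
Lamp1: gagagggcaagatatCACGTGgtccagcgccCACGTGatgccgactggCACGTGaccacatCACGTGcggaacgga
Mcoln1: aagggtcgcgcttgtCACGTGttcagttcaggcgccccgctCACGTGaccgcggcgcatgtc
Lamp1 held 4 E-boxes, between 61 and 15 bases before its start, and Mcoln1 held 2. Ctsd held 2, at 245 and 98 bases before its start, Ctsl 1 at 236 bases and Ctsf 1 at 79 bases.

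Most lysosomal genes differed little between the fractions, and the ones that changed went both ways. The proteases Ctsk, Ctsl and Ctsd and the pump subunit Atp6v0d2 were higher in the iron positive fraction. The proteases Ctsf, Ctsc and Ctsh, the mannosidase Man2b1, the ceramidase Asah1 and the thioesterase Ppt1 were lower. At an unadjusted p under 0.05, 7 were higher and 12 lower, beside 2278 higher and 1868 lower of all 13343 tested genes. For alternative fits, counts at that unadjusted cut-off are given for the members only. The other 39 genes did not pass the adjusted threshold, 42 of 49 lay within 0.5 log2 units of no change, and the median log2 fold change was -0.05, beside -0.01 over all tested genes. The 4 higher genes are 8.16% of the 49, close to the 8.49% of all tested genes called higher. The 6 lower genes are 12.2%, beside 5.21% of all tested genes. The 4 iron positive values lay all above the iron negative ones for 4 genes (8.16%, beside 11.2% of all tested genes) and all below them for 11 (22.4%, beside 10.3%). With the tag as a replicate block, 6 were higher (12.2%, beside 12.8%) and 11 lower (22.4%, beside 9.39%).

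The direction of the smaller differences depended on what the libraries were scaled to. Scaled to the 12 macrophage genes in place of TMM, 17 of the 49 were higher (34.7%, beside 16.7% of all tested genes) and 0 lower (beside 0.142%, 19 genes), with 0 lower at an unadjusted p under 0.05 as well. The scaling genes include the lysosomal genes Cd68 and Lyz2 but none of the members. That scaling moved the median of all tested genes to 0.27, and the members' median was then 0.22. The 4 higher genes passed under it and the 6 lower genes did not. With any 1 iron negative library left out, 0 members passed in edgeR, with 6 to 7 higher and 10 to 11 lower at an unadjusted p under 0.05. These fits called few or no genes at all. Over all tested genes, 0 were higher and 0 lower without 3L, 3R or 4R, and 26 were higher and 12 lower without 5L. Leaving out iron positive 4R left 2 members higher and 1 lower, beside 399 higher and 214 lower of all 13461 genes tested in that fit.

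**Figure D1:**
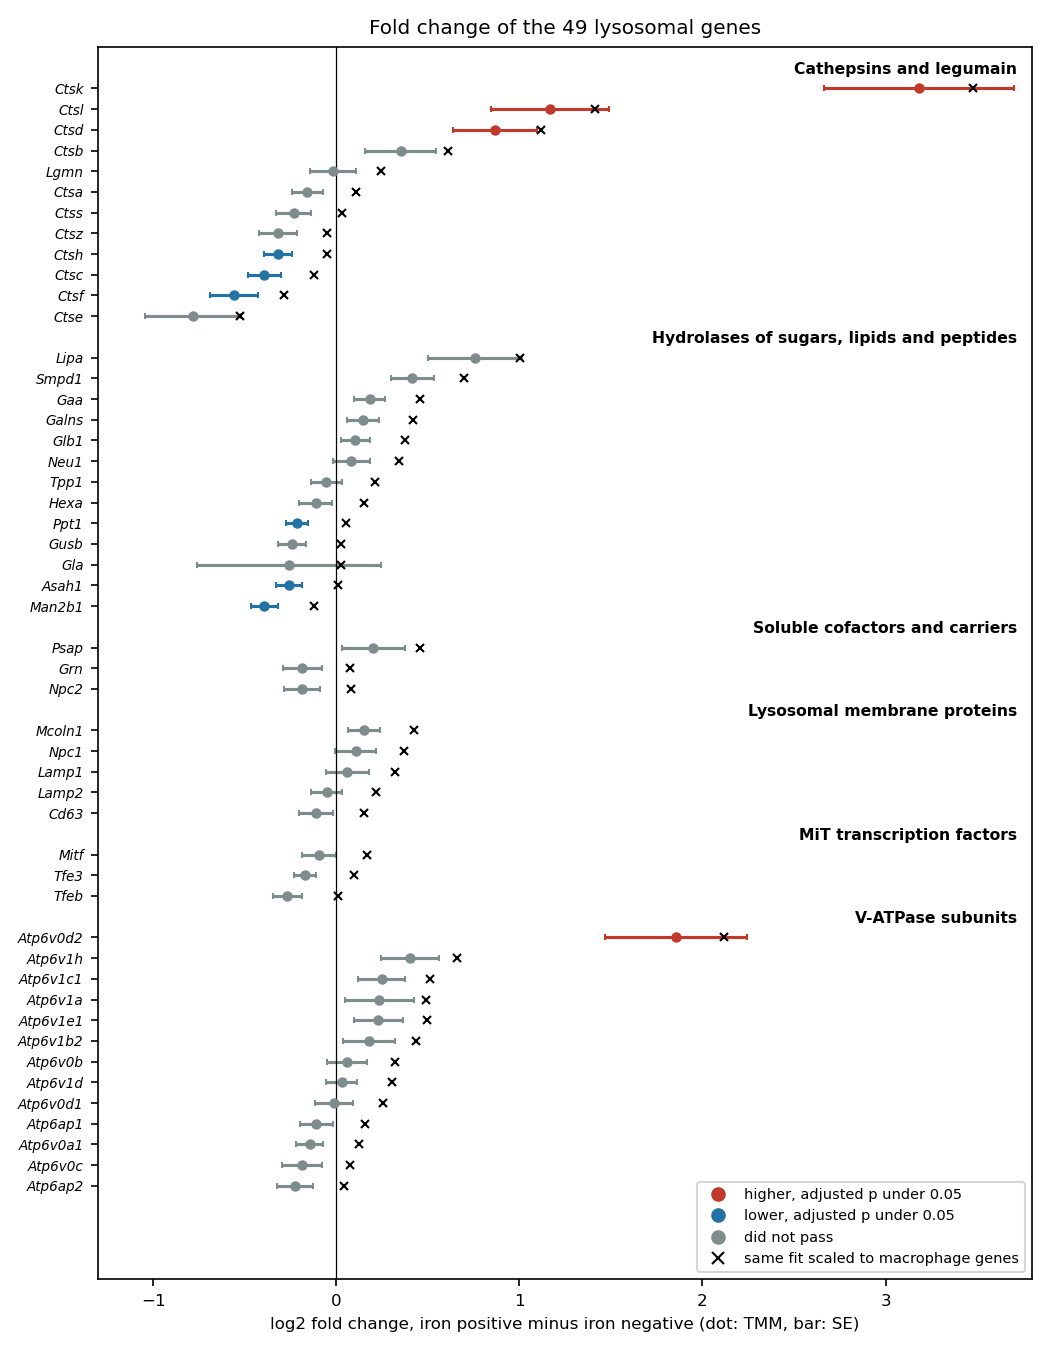
Log2 fold change (x axis, iron positive minus iron negative) of each of the 49 lysosomal genes (y axis, by subgroup), as a dot with its SE bar under TMM and a cross under scaling to macrophage genes. Ctsk (3.18) and Atp6v0d2 (1.85) stand apart, and 42 genes lie within 0.5 of 0.

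Ctsd, the main aspartic protease of lysosomes (chromosome 7, 142375911 to 142388038, minus strand, mm10), had the largest share of the cathepsin TPM among the genes that rose. In tag order 3L, 3R, 4R and 5L, its iron negative values were 2474, 2378, 2267 and 2575 CPM and its iron positive values 5779, 2732, 5592 and 3591 CPM. The groups did not overlap, with iron positive 3R nearest to the flowthrough. Its mean went from 2424 ± 132 to 4423 ± 1501 CPM (SD, n = 4 each), a log2 fold change of 0.87 ± 0.23 (SE; adjusted p = 0.0411). Ctsl, a cysteine endopeptidase (chromosome 13, 64359337 to 64370890, minus strand), followed the same order of libraries. Its iron negative values were 599, 448, 515 and 566 CPM and its iron positive values 1703, 604, 1656 and 823 CPM. Again 3L and 4R were high and 3R was only just above the highest iron negative library. The change was 1.17 ± 0.32 (adjusted p = 0.0461), from 532 ± 65.5 to 1196 ± 565 CPM.

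Ctsk, the collagen-degrading cathepsin best known from osteoclasts (chromosome 3, 95499256 to 95509362, plus strand), showed the largest fold change of the 49 genes from a low level. It stood at 5.75, 2.92, 7.12 and 3.96 CPM (3L, 3R, 4R, 5L) in iron negative and 41.2, 36.5, 86.3 and 15.5 CPM in iron positive libraries. Unlike Ctsd and Ctsl, it was lowest in 5L and not in 3R among the iron positive libraries. The change was 3.18 ± 0.52 (adjusted p = 0.0173), and its mean rose from 4.94 ± 1.86 to 44.9 ± 29.8 CPM. Fibroblasts also express Ctsk. The summed fibroblast markers were 498 (3L), 4770 (3R), 1750 (4R) and 553 CPM (5L) in the same iron positive libraries, and their part in the Ctsk difference was not tested. Osteoclast and fused macrophage markers summed to 541 to 671 CPM in iron negative and 460 to 502 CPM in iron positive libraries, with 1 of 5 tested higher and 2 lower, and Oscar and Calcr stayed under 1 CPM in every library. Most of that sum was Acp5, at 412 to 521 against 334 to 382 CPM, while Itgb3 had 1.83 to 3.36 against 5.88 to 50.8 CPM.

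Ctsc, which activates granule serine proteases, had 3142, 2856, 2941 and 2852 CPM in iron negative and 2284, 2011, 2239 and 2449 CPM in iron positive libraries. It fell by 0.39 on the log2 scale (SE 0.089, adjusted p = 0.0262), from 2948 ± 135 to 2246 ± 181 CPM. Ctsh, an aminopeptidase, had 810.2, 795, 759 and 707 against 669.9, 573, 599 and 619 CPM. Its change was -0.32 ± 0.077 (adjusted p = 0.0309). Ctsf, a cysteine protease of lower abundance, had 29.3, 28.1, 28.4 and 30.1 against 16.8, 19.3, 17.0 and 25.7 CPM, a change of -0.56 ± 0.13 (adjusted p = 0.0300). For all 3 genes every iron positive value lay below every iron negative value, with 5L nearest to it for Ctsc and Ctsf and 3L for Ctsh. Scaled to macrophage genes, the log2 fold changes were -0.12 for Ctsc, -0.05 for Ctsh and -0.28 for Ctsf, with adjusted p = 0.297, 0.708 and 0.194.

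The other cathepsins did not pass. Ctss, the protease that trims the invariant chain, had the highest mean level per length of the 12 (3689 TPM, read counts scaled by transcript length and library total). Its values were 3706, 3525, 3434 and 3425 CPM in iron negative and 3192, 2585, 3082 and 3127 CPM in iron positive libraries, with no overlap. The difference was -0.23 ± 0.095 (adjusted p = 0.133). Ctsb (2916 TPM), a cysteine protease, had 5323, 4762, 4427 and 4664 against 7562, 4200.0, 7427 and 5274 CPM. High values in 3L and 4R and the lowest of all in iron positive 3R made the groups overlap, and the difference was 0.35 ± 0.19 (adjusted p = 0.254). Ctsz differed by -0.32 (adjusted p = 0.0780, and 0.0295 with the tag as a block), Ctsa by -0.16 (adjusted p = 0.236) and legumain (Lgmn) by -0.02 (adjusted p = 0.939). Ctse, with the lowest TPM of the group, differed by -0.78 (adjusted p = 0.0826). The subgroup thus had 3 of 12 higher and 3 lower, with a median of -0.20.

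**Figure D2:**
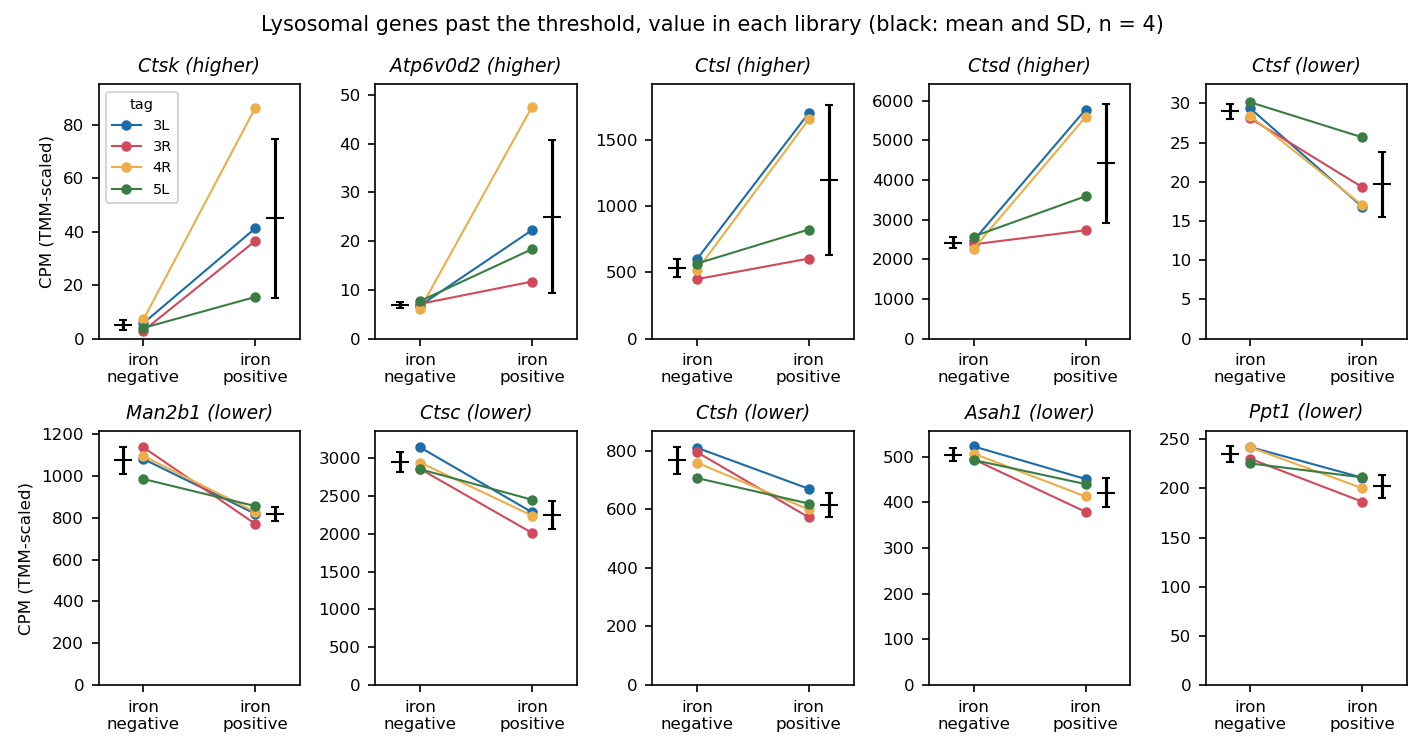
Level in CPM (y axis, from 0) of each of the 10 lysosomal genes past the threshold in the iron negative and iron positive fraction, with lines joining libraries of 1 tag and the mean and SD in black. Ctsd, Ctsl, Ctsk and Atp6v0d2 were higher in 4 of 4 pairs, and the 6 other genes were lower in 4 of 4.

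The makeup of the cathepsin pool differed between the fractions. Shares of Ctsd, Ctsl, Ctsb and Ctsk were larger in the iron positive libraries, and those of Ctss, Ctsc, Ctsh, Ctsz, Ctsf and Lgmn smaller, without overlap. Shares of 1 sum are tied, so a share can fall without a fall in level. The mean level of Lgmn was 1964 TPM in iron negative and 2014 TPM in iron positive libraries. Only the Ctsd and Ctsl shares were tested. Both genes are called higher above in the same libraries, so the tests give no separate support and do not single out these genes. These shares are of the summed TPM of the 12 genes within each library, so library scaling does not touch them. Ctsd made up 9.96%, 10.2%, 9.97% and 11.2% of it in iron negative and 19.9%, 14.4%, 19.6% and 15.3% in iron positive libraries. The mean went from 10.3% ± 0.597 to 17.3% ± 2.87 (SD, n = 4), and the share was higher in 4 of 4 pairs (exact two-sided permutation p = 0.0286, the smallest that 4 against 4 can give, and 0.0476 adjusted over 5 shares). That test took the libraries as independent and did not use the pairs. Ctsl went from 3.39%, 2.74%, 3.48% and 3.66% to 7.83%, 4.5%, 7.61% and 5.03% (exact permutation p = 0.0286, adjusted 0.0476). Beside them, as a description, Ctss went from 25.4% ± 0.231 to 20.6% ± 2.56, Ctsc from 10.9% ± 0.309 to 7.91% ± 1.35, and Ctsb from 16.2% ± 0.566 to 19.3% ± 1.91. Ctsk stayed a minor part, at 0.0312% ± 0.012 and 0.26% ± 0.147. The summed level of the 12 genes was 15434 ± 249 TPM in iron negative and 17021 ± 3030 TPM in iron positive libraries, and in the latter it ran from 13359 in 3R to 20260 TPM in 4R, on either side of the flowthrough.

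Among the 13 hydrolases of sugars, lipids and peptides, 0 were higher and 3 lower, with a median of -0.05. Man2b1, the lysosomal alpha-mannosidase (338 TPM), had 1081, 1137, 1096 and 986 CPM in iron negative and 819, 771, 828 and 856 CPM in iron positive libraries. Its fall of 0.39 on the log2 scale (SE 0.073, adjusted p = 0.0183) left a gap between the groups. Asah1, the acid ceramidase, had 523, 494, 507 and 493 against 451, 379, 413 and 440.2 CPM (-0.26 ± 0.071, adjusted p = 0.0445). Ppt1, which removes palmitate from proteins, had 242, 230.0, 242 and 225 against 211, 186, 200.2 and 211 CPM (-0.22 ± 0.061, adjusted p = 0.0487). These are differences of small size with tight replicates in both groups, and the lowest iron positive value of each of the 3 genes was in 3R. Under macrophage scaling the values were -0.12 for Man2b1, 0.01 for Asah1 and 0.05 for Ppt1 (adjusted p = 0.403, 0.947 and 0.654), so Asah1 and Ppt1 lay just above 0.

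Hexa, a glycosidase that acts on gangliosides, was the most abundant of these hydrolases (486 TPM). It had 737, 702, 699 and 689 CPM in iron negative and 726, 555, 679 and 652 CPM in iron positive libraries. The groups overlapped through 3L, and the difference was -0.11 ± 0.089 (adjusted p = 0.425). A pair of lipid hydrolases on the upper side did not pass without the block and passed with it, in DESeq2 and under macrophage scaling. Lipa, the acid lipase that frees cholesterol from esters, differed by 0.76 (adjusted p = 0.0827, blocked 0.0484), and Smpd1, the acid sphingomyelinase, by 0.41 (adjusted p = 0.0502, blocked 0.0481). Lipa had 206, 193, 190.2 and 179 against 475, 197, 391 and 236 CPM, so that iron positive 3R lay inside the range of the flowthrough. Gusb, the beta-glucuronidase, differed by -0.24 (adjusted p = 0.0665, blocked 0.0381). The glycosidases Gaa, Glb1 and Gla, the sulfatase Galns, the sialidase Neu1 and the peptidase Tpp1 lay between -0.26 and 0.18 and did not pass. The Gla difference had an SE of 0.50.

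Of the 3 soluble cofactors and carriers, 0 passed, and the median was -0.19. Psap, the precursor of the saposins that present lipids to hydrolases, had the highest mean level per length of all 49 genes (3957 TPM). It had 7553, 7338, 6881 and 6356 CPM in iron negative and 9938, 5981, 9413 and 7023 CPM in iron positive libraries. As with Ctsb, 3L and 4R were high and 3R lowest of all, and the difference was 0.20 ± 0.17 (adjusted p = 0.469). Grn, the progranulin gene (1326 TPM), had 2106, 2078, 2129 and 2243 against 2001, 1520, 1973 and 2028 CPM. The groups did not overlap, yet the difference of -0.19 ± 0.11 did not pass (adjusted p = 0.275). Npc2, the luminal cholesterol carrier, differed by -0.19 (adjusted p = 0.243).

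The 5 membrane proteins lay between -0.11 and 0.15, and 0 passed. The tetraspanin Cd63 (1035 TPM) had 739, 675, 719.6 and 663 CPM in iron negative and 749, 571, 639 and 627 CPM in iron positive libraries, a difference of -0.11 ± 0.093 (adjusted p = 0.446). Lamp1 (987 TPM), a main glycoprotein of the lysosomal membrane and the gene with 4 E-boxes printed above, had 1604, 1525, 1436 and 1545 against 1865, 1272, 1682 and 1556 CPM. The groups overlapped for both, and the Lamp1 difference was 0.06 ± 0.12 (adjusted p = 0.764). The cholesterol exporter Npc1, the calcium channel Mcoln1 and Lamp2 lay at 0.11, 0.15 and -0.05.

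All 3 MiT factors were nominally on the lower side, and 0 passed without the block. Tfe3 (57.7 TPM) had 110.5, 106, 114 and 118 CPM in iron negative and 103, 90.9, 98.0 and 106 CPM in iron positive libraries (-0.17 ± 0.061, adjusted p = 0.0990, blocked 0.0483). Tfeb (27.6 TPM) had 41.7, 45.6, 43.5 and 41.6 against 30.8, 35.7, 37.1 and 39.6 CPM (-0.27 ± 0.080, adjusted p = 0.0603, blocked 0.0405). For both genes every iron positive value lay below every iron negative one. Mitf differed by -0.09 (adjusted p = 0.540), and its share of the summed TPM of Mitf, Tfe3, Tfeb and Tfec was 12.4% ± 0.474 and 12.4% ± 1.92 (exact permutation p = 1.0). Scaled to macrophage genes, the values were 0.10 for Tfe3, 0.01 for Tfeb and 0.17 for Mitf (adjusted p = 0.404, 0.957 and 0.2). All 3 thus lay slightly above 0, and 0 passed. Melanocyte markers, of the other lineage known for Mitf, summed to 1.06 to 1.35 CPM and 1.11 to 1.41 CPM, with Tyrp1 and Sox10 at 0 in every library.

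Of the 13 V-ATPase subunits, 1 was higher (Atp6v0d2), 0 were lower, 12 lay within 0.5 log2 units, and the median was 0.06. With the tag as a block, Atp6ap2 was also lower (-0.22, adjusted p = 0.162, blocked 0.0483). Their summed level was 3038 ± 95.8 TPM in iron negative and 3007 ± 354 TPM in iron positive libraries. All 13 were lowest in 3R among the iron positive libraries. Atp6v0c (1289 TPM), which forms the proton-carrying ring, had 1155, 1000.2, 992 and 1009 CPM against 1077, 765, 896 and 913 CPM, and the difference was -0.19 ± 0.11 (adjusted p = 0.291). Atp6v0b (488 TPM), another ring subunit, with 2 E-boxes in its window, had 265, 262, 265 and 249 against 327, 223, 281 and 254 CPM (0.06 ± 0.11, adjusted p = 0.751). The groups overlapped for both. The remaining subunits did not pass, from -0.22 for Atp6ap2 to 0.40 for Atp6v1h (adjusted p = 0.122), a subunit of the cytosolic sector.

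Atp6v0d2 is the alternative form of the d subunit, which couples the cytosolic sector to the membrane sector, and is known from osteoclasts and macrophages (chromosome 4, 19876841 to 19922605, minus strand). It had 6.76, 7.12, 6.09 and 7.70 CPM in iron negative and 22.3, 11.7, 47.6 and 18.4 CPM in iron positive libraries. The groups did not overlap, and 4R was highest and 3R lowest in the eluate. The log2 fold change was 1.85 ± 0.39 (adjusted p = 0.0217), from 6.92 ± 0.672 to 25.0 ± 15.7 CPM. The common form Atp6v0d1 stood at 162 ± 11.6 and 161 ± 21.7 CPM (-0.01 ± 0.10, adjusted p = 0.950). Per length, Atp6v0d2 made up 2.13%, 2.50%, 2.29% and 2.69% of both forms in iron negative and 7.13%, 4.76%, 13.6% and 6.36% in iron positive libraries. The mean share rose by 5.56 percentage points, from 2.40% ± 0.243 to 7.96% ± 3.89, higher in 4 of 4 pairs (exact two-sided permutation p = 0.0286, adjusted 0.0476). Here too the test did not use the pairs, and it draws on the same values as the call of Atp6v0d2. Among the a subunits, Tcirg1 held 85.4% ± 0.519 and 87.0% ± 0.798 of the summed TPM, a difference of 1.56 points that did not pass (exact permutation p = 0.0571, adjusted 0.0714).

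**Figure D3:**
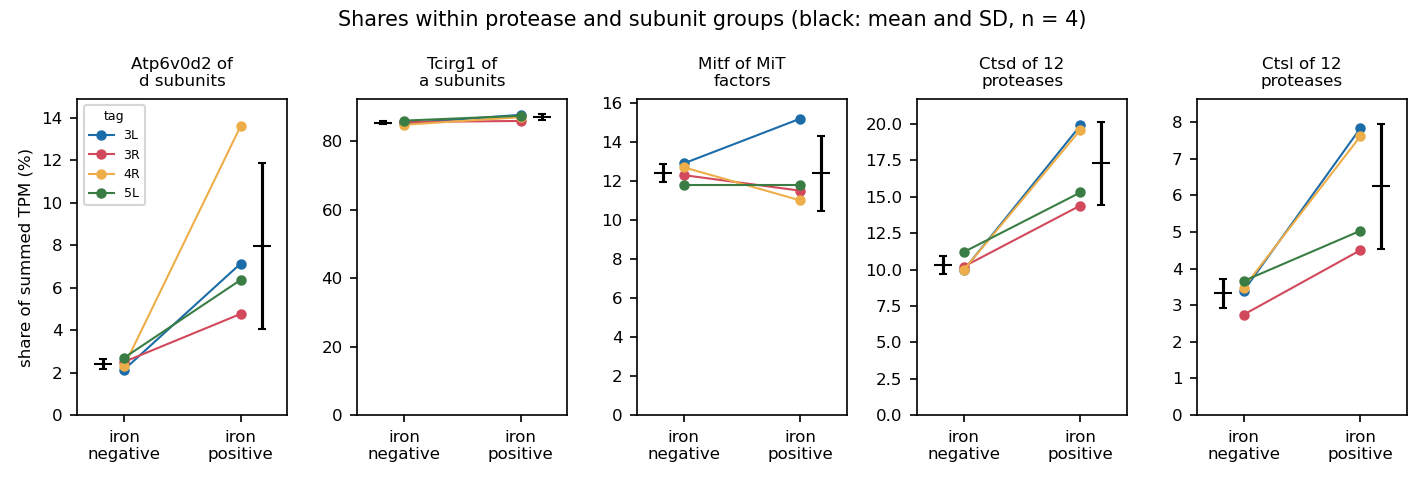
Share of summed TPM in percent (y axis, from 0) by fraction for the 5 shares tested, with lines joining libraries of 1 tag and the mean and SD in black. The Atp6v0d2 share rose from 2.40% to 7.96%, Ctsd from 10.3% to 17.3% and Ctsl from 3.32% to 6.24%, while the Tcirg1 and Mitf shares did not pass.

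Over the 8 libraries, the genes whose log2 CPM followed Atp6v0d2 most closely among 10161 genes with a mean of at least 5 CPM were Cenpb (Pearson r = 0.983), Pde8a (0.978), Mmp8 (0.976), Nav2 (0.97) and Mmp12 (0.97). These values are descriptions over libraries that fall into the 2 fractions, so a gene that differs between them can score high. Of the lysosomal genes, Ctsd (0.934), Ctsl (0.913) and Ctsk (0.886) came next to it, and Ctsf (-0.833) lay at the other end. Mmp8, a collagenase, had 1.81, 1.07, 2.01 and 1.0 CPM in iron negative and 23.5, 3.93, 60.6 and 14.4 CPM in iron positive libraries. Mmp12, the macrophage elastase, had 140, 140, 129 and 102 against 278, 188, 528 and 249 CPM. Both were highest in 4R and lowest in 3R within the eluate, as Atp6v0d2 was.

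The iron positive libraries differed among themselves more than the iron negative ones. The ratio of highest to lowest library was wider in the iron positive fraction for 47 of the 49 genes (95.9%, beside 67.5% of all tested genes), with a median of 1.34 against 1.14. Among iron positive libraries, 41 of 49 genes were lowest in 3R (83.7%, beside 25.7% of all tested genes) and 40 were highest in 3L or 4R (81.6%, beside 41.9%). Taken as same-tag log2 ratios, the 49 genes had medians of 0.03 (3L), -0.27 (3R), 0.03 (4R) and -0.03 (5L), while all tested genes lay within 0.02 of 0 in each tag. The macrophage markers had -0.28, -0.47, -0.34 and -0.18. In 3R, 8 of 49 genes lay above 0 (16.3%, beside 50.7% of all tested genes). The counts were 27 in 3L (55.1%, beside 50.8%), 26 in 4R (53.1%, beside 48.0%) and 20 in 5L (40.8%, beside 46.9%). Of the genes not lowest in iron positive 3R, Ctsk, Gaa, Gla, Smpd1 and Mcoln1 were lowest in 5L, Ctsf and Tfeb in 3L and Ctse in 4R. Iron positive 3R also had the highest endothelial (1470 CPM) and fibroblast (4770 CPM) marker sums, and their part in its low lysosomal values was not tested. Leaving that library out gave 6 higher and 3 lower members, beside 1141 higher and 568 lower of all 13458 genes tested in that fit.

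**Figure D4:**
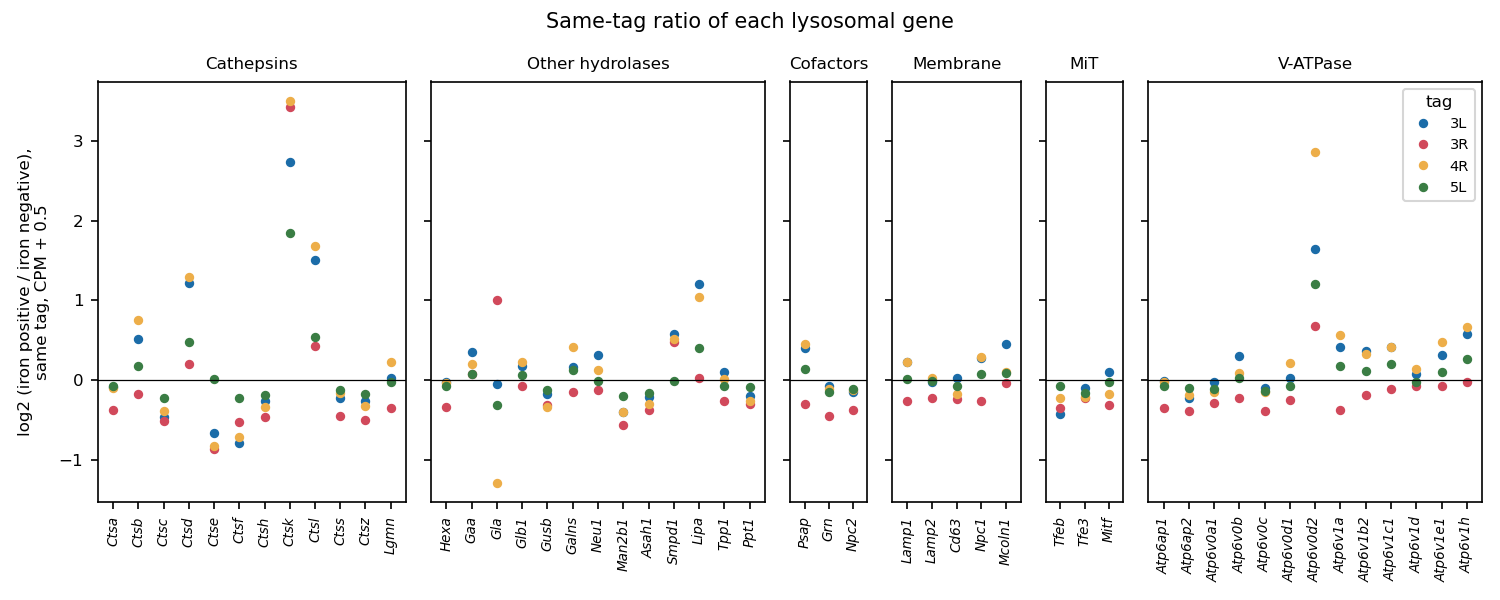
Log2 ratio of iron positive to iron negative CPM within each tag (y axis, 0.5 CPM added) for each of the 49 genes (x axis, by subgroup), with 1 point per tag. The 3R points lie lowest for most genes, with a median of -0.27 against 0.03 in 3L and 4R and -0.03 in 5L.

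Genes around the lysosome were read from lists beside the members. Of 28 other genes of lysosomal digestion, 3 were higher and 5 lower (median -0.09), and with the tag as a block Manba was also lower (blocked adjusted p = 0.0347). Gpnmb, a transmembrane glycoprotein and not a hydrolase, was higher by 3.78 ± 0.54 (adjusted p = 0.0172), at 33.8, 27.3, 29.2 and 19.7 CPM in iron negative and 489, 139, 701 and 181 CPM in iron positive libraries. Gm2a, an activator protein for ganglioside breakdown, was lower, with a change of -0.52 (adjusted p = 0.0172). The hyaluronidases Hyal1 (1.52) and Hyal2 (0.86) were higher and Ids, Galc and Acp5 lower, and these 5 were named after their values were seen. Of 21 other membrane proteins, 0 were higher and 2 lower, the cystine exporter Ctns and the channel Tpcn1 (-0.26 and -0.30, adjusted p = 0.0385 and 0.0337). With the tag as a block Ctns no longer passed (adjusted p = 0.0520), and Laptm5 did (-0.32, adjusted p = 0.0512, blocked 0.0342). Of 12 other V-ATPase subunits, 6 were tested and 0 passed. The most abundant was Tcirg1, at 0.12 (adjusted p = 0.462).

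Of 10 genes for sorting enzymes to lysosomes, 2 receptors were higher and 1 adaptor lower. With the tag as a block M6pr and Nagpa were also lower (blocked adjusted p = 0.0186 and 0.0304). Igf2r, the cation-independent mannose 6-phosphate receptor, had 11.5, 11.4, 14.7 and 10.3 CPM in iron negative and 74.2, 86.2, 131 and 35.7 CPM in iron positive libraries (2.77 ± 0.36, adjusted p = 0.0156). Sort1, the sortilin receptor, had 7.07, 6.63, 7.52 and 6.22 against 60.4, 17.5, 58.9 and 21.9 CPM (2.53 ± 0.42, adjusted p = 0.0173). Sort1 was lowest in 3R among iron positive libraries, and Igf2r was lowest in 5L. The adaptor Gga2 was lower (-0.22, adjusted p = 0.0373). Of 8 cysteine protease inhibitors, 4 were tested and 1 was lower, Cst3 (cystatin C; -0.41, adjusted p = 0.0222). Of 14 tested genes for the control of MiT factors by mTORC1, 1 was lower, Rptor (-0.33, adjusted p = 0.0373), and with the block Rraga as well (blocked adjusted p = 0.0229). Of 14 autophagy genes, 0 were lower (Ulk2 with the block, blocked adjusted p = 0.0423) and 2 were higher, Wipi1 (0.68, adjusted p = 0.0280) and Gabarapl1 (0.70, adjusted p = 0.0426). Over the 97 tested genes of these lists, 7 were higher (7.22%, beside 8.49% of all tested genes) and 10 lower (10.3%, beside 5.21%). With the tag as a block 7 were higher (7.22%, beside 12.8%) and 15 lower (15.5%, beside 9.39%), and with macrophage scaling 26 were higher (26.8%, beside 16.7%) and 0 lower (beside 0.142%). Cd68 and Lyz2 of these lists are themselves among the scaling genes, and Lyz2 is among the 26.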

How the data were processed

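RNA was measured in 4 iron positive and 4 iron negative libraries. Per the submitters' processing notes, transcripts were quantified with kallisto 0.46.2 on mm10. The authors' deposited tables give 1 row per transcript, with its length, its effective length, an estimated count that is not normalized, and a TPM value adjusted for effective length and depth, per the file headers. No replicates were pooled. Of 119414 transcripts, 116728 matched GENCODE release 21 (GRCm38, counted from 1) by identifier without version, and the 2686 others (0.888% to 0.961% of estimated counts) were left out. Counts were summed over each gene without regard to strand, so overlapping genes cannot be told apart, and rounded.

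Fractions were compared in R 4.3.3 with edgeR 4.0.16 (quasi-likelihood F-test, trimmed mean of M values, filterByExpr), without a block, Benjamini-Hochberg adjusted over all 13343 genes. SEs are the absolute log2 fold change divided by the square root of F, which is approximate. Shares were tested with exact permutation tests (SciPy 1.17.1), which took the libraries as independent and did not use the tag. Alternatives used limma 3.58.1, DESeq2 1.42.0, other scalings, filters and libraries. The fits were tested on simulated data: for iron positive against iron negative libraries, on 13190 genes, calls were made for 31 of 50 genes at a true fold of 2, for 43 of 49 at 4, for 47 of 49 at 8 and for 50 of 50 at 16, with 0 wrong signs, and for 12 of 12992 genes without a change. The simulation had equal dispersion in both fractions, no tag effect and no change smaller than 2-fold. It therefore does not cover the lower members, whose folds were 0.68 (Ctsf) to 0.86 (Ppt1).

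As a check of pairing, deviations from fraction means were correlated across genes. Same-tag libraries had r = 0.530 (3L), 0.521 (3R), 0.270 (4R) and 0.304 (5L), all over the limit of 0.1. The highest r with an unlike tag was 0.131 (3L), 0.206 (3R), 0.257 (4R) and 0.234 (5L), also over that limit. Passing the limit therefore does not by itself show pairing, and for 4R the gap to unlike tags was small. Both fractions carry the same tags in the labels, which is the origin of the pairs. The blocked value stands beside each member or list gene whose call it changes. No paired test was run for the shares.

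The members and lists were chosen with earlier results of these data known. Values per library are given for each called member and the 2 of highest mean TPM in each subgroup. Of each surrounding list, up to 3 called genes with the smallest adjusted p are named with their log2 fold change, and 1 of these is not reported here. Values per library of Lipa, Gpnmb, Igf2r and Sort1, and the names of list genes that passed with the block and not without it, were added after values were seen. Marker sums of the remaining lists ran, iron negative against iron positive, from 70.8 to 83.6 against 69.1 to 96.0 CPM (neutrophil), 0.780 to 1.16 against 0.706 to 1.53 (B and plasma cell) and 11.8 to 60.7 against 41.9 to 212 (red cell). The neutrophil sum was mostly Csf3r, at 68.3 to 78.4 against 58.2 to 70.3 CPM. Of the 5 tested neutrophil markers, 2 were higher and 0 lower, with a median log2 fold change of 1.72. S100a8 ran from 0.435 to 1.88 against 3.43 to 10.4 CPM, and S100a9 from 1.35 to 2.68 against 3.83 to 12.9 CPM.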

Additional observations from a re-analysis of the deposited data

Results flagged for a closer look

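Of 108 groups of 4 library values examined among the lysosomal genes and shares, 7 held 1 value that lay far from the other 3, where chance gives about 1 in 20. Iron negative 3L was the high value for 5 genes: Npc2 at 1079 CPM (others 925.5 to 951), Atp6ap2 at 326.8 (275.7 to 278.4), Atp6v0c at 1155 (992 to 1009), Atp6v1d at 92.8 (80.9 to 82.0) and Atp6v1h at 75.2 (65.2 to 66.8). Iron negative 3R was the low value for Gusb, at 440.6 CPM (others 464.3 to 467.2). Iron positive 3R was the low value for Grn, at 1520 CPM (others 1973 to 2028).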

How the results depend on the processing

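Against 4 members higher and 6 lower, limma on log2(TPM + 1) gave 2 and 3, limma on log2(TPM + 0.1) 3 and 3, limma voom 0 and 3 (7 and 13 at an unadjusted p under 0.05), DESeq2 6 and 10, length offsets 3 and 3, no filter 4 and 2, the stricter filter of 1 CPM 5 and 5, library totals 5 and 4, relative log expression 5 and 4, macrophage scaling 17 and 0, tags 3L and 5L only 1 and 0 (6 and 1 at an unadjusted p under 0.05), and the replicate block by tag 6 and 11. Over all tested genes, calls numbered 1133 higher and 695 lower in the main fit. They were 413 and 205 (limma, TPM + 1), 706 and 270 (TPM + 0.1), 188 and 272 (voom) and 1703 and 1070 (DESeq2). They were 929 and 407 (length offsets), 1309 and 560 (no filter), 1002 and 615 (stricter filter), 1172 and 361 (library totals) and 1140 and 651 (relative log expression). Macrophage scaling gave 2231 and 19, tags 3L and 5L only 321 and 7, and the block 1705 and 1253. Leaving out 1 library gave 0 to 6 higher and 0 to 8 lower members. It was 0 and 0 without each iron negative library, 2 and 5 without iron positive 3L, 6 and 3 without 3R, 2 and 1 without 4R, and 5 and 8 without 5L. The cause was not tested. The block changed no member's call other than those named beside the results. All 10 called members kept their sign in every alternative except macrophage scaling, where Asah1 (0.008) and Ppt1 (0.054) turned. Over the 200 alternatives of called members, 102 kept the call and 96 kept the sign only. Over the 780 of members that were not called, 35 passed and 45 turned sign without passing. Under macrophage scaling these were Ctsa 0.11, Ctss 0.034, Lgmn 0.246, Hexa 0.152, Gla 0.025, Gusb 0.026, Tpp1 0.209, Grn 0.075, Npc2 0.079, Lamp2 0.218, Cd63 0.153, Tfeb 0.011, Tfe3 0.099, Mitf 0.166, Atp6ap1 0.156, Atp6ap2 0.043, Atp6v0a1 0.123, Atp6v0c 0.077 and Atp6v0d1 0.256. With library totals they were Lgmn 0.034, Lamp2 0.002 and Atp6v0d1 0.041, and in limma on log2(TPM + 1) and on log2(TPM + 0.1) Lgmn 0.024, Lamp2 0.036, Atp6v0a1 0.003 and Atp6v0d1 0.039. With the stricter filter it was Atp6v0d1 0.002, and with tags 3L and 5L only Tpp1 0.006 and Mitf 0.034. With 1 library left out, values ran from -0.080 to 0.082 for Lgmn, -0.611 to 0.036 for Gla, -0.021 to 0.162 for Neu1, -0.108 to 0.020 for Tpp1, -0.028 to 0.155 for Lamp1, -0.108 to 0.008 for Lamp2, -0.048 to 0.142 for Atp6v0b, -0.084 to 0.062 for Atp6v0d1 and -0.043 to 0.081 for Atp6v1d. The share differences in percentage points then ran from 3.68 to 6.63 for Atp6v0d2, 6.1 to 7.93 for Ctsd, 2.39 to 3.5 for Ctsl, 1.33 to 1.93 for Tcirg1 and -0.995 to 0.407 for Mitf, and 3 against 4 libraries cannot pass after adjustment. From estimated counts, the Mitf share difference was 0.596 and those of Atp6v0d2, Ctsd and Ctsl kept their calls (8.66, 7.3 and 2.48).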

Other observations

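Transcript makeup is given as shares of a gene's TPM, which kallisto estimates by model where exons are shared, so it is a description with no test. Lamp2, whose transcripts encode membrane proteins with different tails, was carried by 2 transcripts in every library. Lamp2-201 made up 48.4% ± 1.28 in iron negative and 51.9% ± 2.89 in iron positive libraries (SD, n = 4), and Lamp2-202 made up 50.5% ± 1.06 and 47.0% ± 2.81. Lamp2-203 held 0.271% to 0.511% and 0.215% to 0.496%. Mitf was carried mainly by Mitf-202, at 68.1% ± 1.90 and 75.1% ± 4.06, and by Mitf-207, at 28.1% ± 0.475 and 22.3% ± 4.05. The groups overlapped for both Mitf transcripts, through iron positive 5L. Ctsl-201 made up 66.5% ± 3.95 and 72.5% ± 4.20 of Ctsl, and its groups overlapped.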
